A study of Mus musculus with 18 samples.

Results

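Wild-type mouse embryonic fibroblasts that had been exposed to TGFb1 for 24 h were compared with wild-type fibroblasts exposed for 4 h, to describe which early responses had faded, which persisted and which began only later. The comparison rests on 4 of the 18 arrays of the series, 2 titled as wild type with TGFb for 24 h and 2 as wild type with TGFb for 4 h, and these 4 were taken by their titles alone. The 2 untreated wild-type arrays gave the starting level of each gene. The cells were fibroblasts grown from the trypsinised bodies of E12.5 to E14.5 fetuses, without head, liver and blood clots, and TGFb1 was added at 5 ng/mL to medium with 10% fetal bovine serum. The same 3 conditions were run in heterozygous and homozygous fibroblasts of a mutant line called constitutively active in the design text, which the series title places in the receptor TGFBR1 and the design text in TGFb1. No duration is labelled for the untreated cells, so hours in culture and hours of TGFb cannot be told apart. The labels do not say whether paired arrays stem from separate embryos or cultures. In wild-type cells sex-linked genes, given below, show that the arrays of a pair came from different cells, but the p-values also draw on the spread of the mutant pairs, which may be technical. They name neither the strain nor how many embryos were pooled.

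TGFb binds a receptor pair on the cell surface, and the type I receptor, TGFBR1, phosphorylates SMAD2 and SMAD3, which enter the nucleus with SMAD4 and regulate genes directly. Among the first targets are genes that damp the signal, such as Smad7 and Skil, and genes of other secreted factors, which act on the same cells in turn. In fibroblasts the cytokine is best known for raising extracellular matrix, a response that follows the first wave of transcription factors.

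Levels are given as log2 of the deposited intensity of 1 probe set per gene, array 1 before array 2, and a level belongs to its probe set and is not compared between genes. Differences are log2 differences between group means with limma's standard error. A gene was called when limma's p, adjusted over 10078 genes, was under 0.05, and only called genes are said to rise or fall. A level under log2 5 was treated as dim. Where both arrays of a group were dim, the fold is a lower bound taken against that level.

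The 6 wild-type arrays carried 16410 to 16707 probe sets of single genes above the dim level. All 10 fibroblast markers lay above it in each of them, and their summed linear intensity was 168000 to 215000. Defining markers of epithelium (Cdh1, Krt5, Krt14), skeletal muscle (Myod1, Myf5), endothelium (Pecam1, Cdh5) and cartilage (Acan, Comp) were dim in all 6, but other members of those lists were not. Above the dim level were 6 to 10 of 16 skeletal muscle markers (summed intensity 2640 to 7680), 3 to 5 of 10 epithelial markers (709 to 3310), 2 of 10 endothelial markers (755 to 1860) and 2 of 10 cartilage and bone markers (1980 to 3560). Of 9 neural and neural crest markers 4 lay above the dim level (1700 to 3140). From 4 h to 24 h 1 of the 8 muscle, 1 of the 5 epithelial and 1 of the 2 endothelial markers tested was lower, and none was higher. Of the 5 neural markers tested 1, Nes, was lower, and it reversed when probe sets were averaged. The summed intensity of 22 macrophage and blood cell markers was 6480 and 2640 untreated, 2670 and 9470 at 4 h and 2110 and 5240 at 24 h. It was higher in the first untreated array and in the second array of each treated wild-type pair. In the treated mutant arrays it was 14000 to 33300. Of the 20 tested 17 had a difference from 4 h to 24 h below 0, with a median of -0.7, and 1 was called. The part of all these cells in the results was not tested, and in bulk RNA fewer cells of a type and less RNA per cell cannot be told apart. The wild-type pairs spread more than the mutant pairs, with a root mean square SD of 0.387 at 4 h and 0.321 at 24 h against 0.183 to 0.222. In each wild-type pair 1 array was high in Xist, expressed from the inactive X of females, and the other in the Y-linked genes Eif2s3y, Kdm5d and Uty, so each group held 1 array of each kind.

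Between 4 h and 24 h of TGFb, 3456 of the 10078 genes tested were called by limma, 1517 higher at 24 h (15.1%) and 1939 lower (19.2%). A change of over 2-fold was called in 274 genes that rose and 408 that fell, and the median difference over all genes was -0.04. In 3447 of the called genes the 2 arrays of 1 time lay wholly above the 2 of the other. Over all genes tested, called or not, 28.3% lay wholly higher at 24 h and 34.1% wholly lower. These calls borrow the spread of the mutant arrays: with the 6 wild-type arrays alone 273 genes were called, or 1418 with the arrays also blocked as the sex-linked genes match them, and with the 4 arrays compared limma called 0, although 2799 genes had an unadjusted p under 0.05. Without the second 4 h array 1958 genes were called, and without the second 24 h array 1980.

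Each time was then set against the untreated arrays. At 4 h 2108 genes were called (20.9%), 956 higher (9.49%) and 1152 lower (11.4%), and at 24 h 1175 (11.7%), 455 higher (4.51%) and 720 lower (7.14%). Of the calls at 4 h 45.4% were higher, or 59.4% when the array medians were made equal. The 3 comparisons share arrays, so the classes that follow are a description with no test. A response was named faded when it was called at 4 h, called back from 4 h to 24 h and not called at 24 h against untreated. This held for 1275 genes, 607 that had risen at 4 h and 668 that had fallen. The risen ones had a median difference from untreated of 0.63 at 4 h and -0.06 at 24 h. A further 54 responses were called at both times but smaller at 24 h (partly faded), 260 were called at both times with no call between them (persisted), and 40 were larger at 24 h (grew). Late responses, not called at 4 h but called at 24 h against both untreated and 4 h, numbered 589, of which 208 were rises and 381 falls. In 55 genes the call at 24 h was opposite to that at 4 h (turned). Of the genes higher at 4 h 63.5% were faded, and of the genes lower at 24 h 52.9% were late. The classes moved with single arrays. Without the first 4 h array there were 2270 faded responses, without the second 488 and without the first untreated array 619. Late responses numbered 1134 without the first untreated array, 346 without the second, and 375 and 292 without the first and the second 24 h array.

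**Figure D1:**
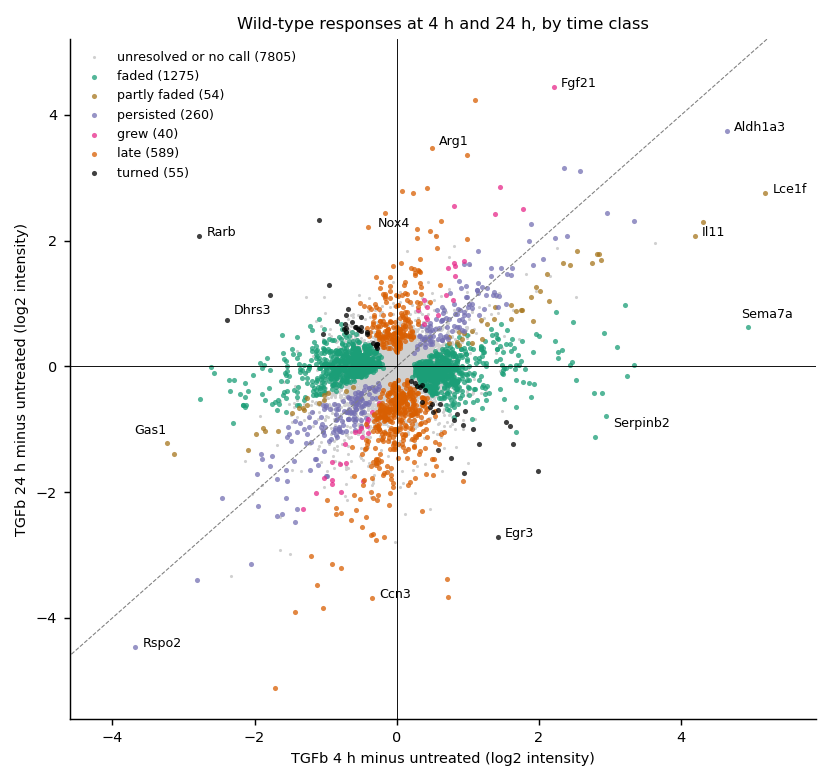
Each point is 1 of 10078 genes, with its log2 difference from untreated wild-type cells after 4 h of TGFb on the horizontal axis and after 24 h on the vertical axis; colours give the time class and the dashed line marks equal differences. The 1275 faded genes lie along the horizontal axis and the 589 late genes along the vertical axis, while Rarb and Dhrs3 (upper left) and Egr3 (lower right) turned. Rarb was dim in both arrays at 4 h, so its horizontal position is uncertain.

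The largest measured fall was that of Sema7a, a membrane-anchored semaphorin known from axon growth and inflammation. Its level was 8.86 and 10.69 at 4 h and 5.37 and 5.56 at 24 h, against 5.05 and 4.61 in untreated cells. Both 4 h arrays stood far above the other 4, and the 24 h pair lay close to the untreated pair. It fell 19.8-fold (log2 difference -4.31 ± 0.44, adjusted p = 7.24e-05), after a rise of 30.8-fold at 4 h whose size is uncertain because 1 untreated array was dim. The transcription factor gene Foxs1 behaved alike, with 6.3 and 7.02 untreated, 9.05 and 10.73 at 4 h and 5.71 and 7.29 at 24 h. It fell 10.4-fold (log2 difference -3.38 ± 0.5, adjusted p = 0.000529), and its arrays at 24 h did not overlap those at 4 h. Nppb encodes B-type natriuretic peptide, a hormone best known from the heart. Its levels were 6.51 and 6.16 untreated, 8.23 and 9.99 at 4 h and 5.06 and 5.37 at 24 h, and it fell 14.9-fold (log2 difference -3.9 ± 0.39, adjusted p = 6.92e-05). Serpinb2, the plasminogen activator inhibitor PAI-2, had 7.46 and 8.4 at 4 h and was dim in both arrays at 24 h, at 4.02 and 4.38. Its fall was at least 7.61-fold (limma, adjusted p = 0.000581). Crct1, Gja3 and Grasp were also among the largest falls, with differences from 4 h to 24 h of -3.2, -2.73 and -2.74. Gja3 encodes a gap junction protein and Grasp a scaffold protein of the membrane.

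**Figure D2:**
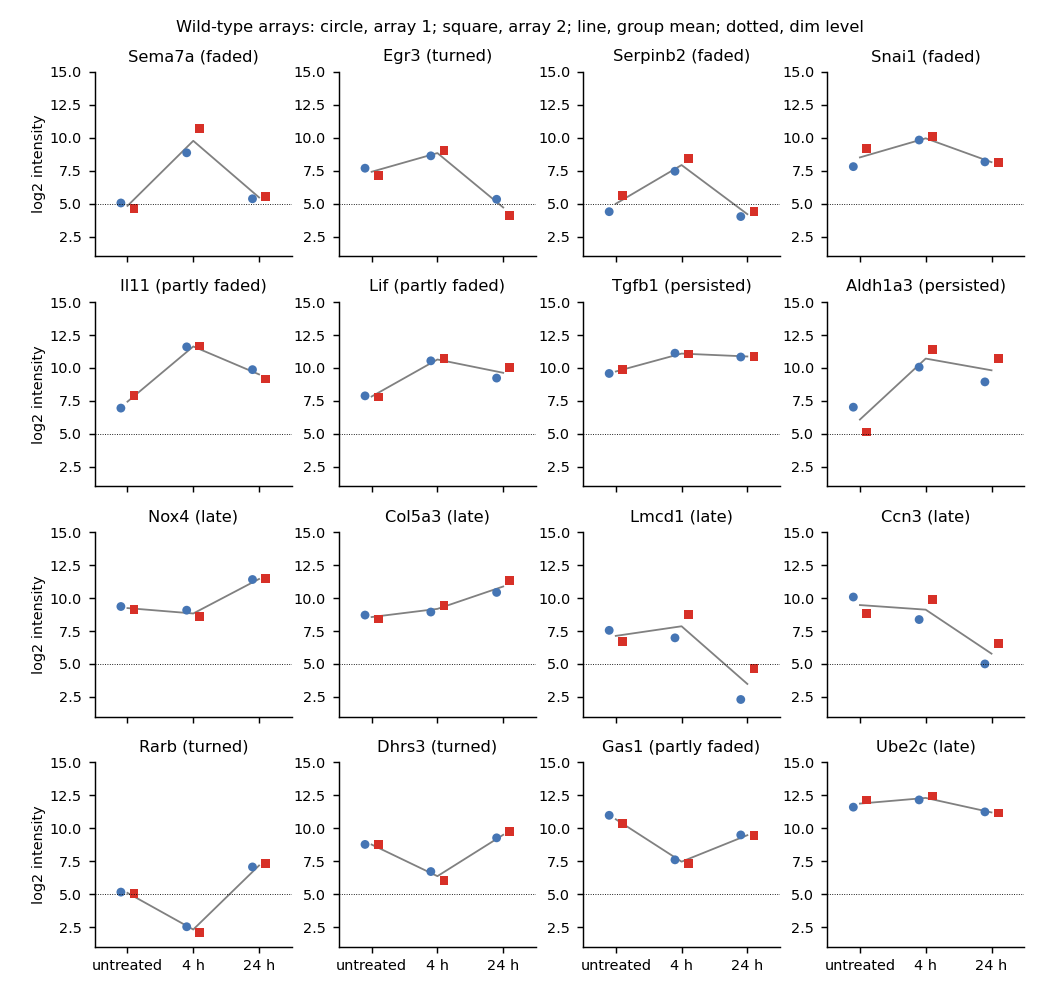
Log2 intensity (vertical axis) of 16 genes in the 6 wild-type arrays, by condition (horizontal axis); circles are array 1, squares array 2, lines join group means, and the dotted line is the dim level of 5. Sema7a, Serpinb2 and Snai1 peaked at 4 h, Il11 and Lif kept part of their rise, Nox4 and Col5a3 rose only at 24 h, and Rarb, Dhrs3 and Gas1 had their lowest levels at 4 h.

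Immediate early genes encode transcription factors switched on within minutes of a stimulus, including the AP-1 subunits of the Fos and Jun families and the Egr zinc fingers. Of 24 measured members 20 were lower at 24 h than at 4 h and none was higher, with a median difference of -1.14. Over all genes tested 19.2% were lower and 15.1% higher, and no test set this gene list or any later one apart from them. Against untreated cells 15 of the 24 were higher at 4 h, and 1 was higher and 7 lower at 24 h. The shares of all genes were 9.49% higher and 11.4% lower at 4 h, and 4.51% and 7.14% at 24 h. Maff, a small Maf factor, had 8.41 and 8.55 untreated, 10.03 and 10.79 at 4 h and 8.04 and 8.36 at 24 h. The 4 h arrays were the highest and the 24 h pair lay just under the untreated pair, and Maff fell 4.62-fold (log2 difference -2.21 ± 0.19, adjusted p = 2.32e-05). Fosl1, the AP-1 subunit Fra-1, had 10.68 and 10.41 at 4 h and 8.91 and 8.61 at 24 h, from 8.93 and 9.65. It fell 3.45-fold (log2 difference -1.79 ± 0.25, adjusted p = 0.00039), and the 4 h arrays lay above all others. Junb, another AP-1 subunit, ran from 8.92 and 9.31 to 10.44 and 10.86 and back to 9.43 and 9.49, and fell 2.28-fold (log2 difference -1.19 ± 0.16, adjusted p = 0.000279). Some members ended below where they had started. Egr3 had 7.69 and 7.14 untreated, 8.63 and 9.04 at 4 h and 5.33 and 4.09 at 24 h, with 1 array at 24 h dim. It fell 17.5-fold (log2 difference -4.13 ± 0.47, adjusted p = 0.000122), and was lower than untreated at 24 h by 6.53-fold. Nr4a1, an orphan nuclear receptor, also turned, from 9.71 and 10.37 through 11.17 and 10.79 to 8.39 and 8.29. It fell 6.25-fold (log2 difference -2.64 ± 0.19, adjusted p = 4.89e-06). Egr1 was not called at 4 h, with 11.48 and 11.52 untreated and 11.68 and 11.53 at 4 h, and was 10.33 and 9.98 at 24 h, a late fall of 2.74-fold from 4 h. Fos was lower than untreated at both times, with 9.71 and 9.7 untreated, 8.67 and 8.91 at 4 h and 7.99 and 7.8 at 24 h. With the 6 wild-type arrays alone 9 members were lower at 24 h, and without the second 4 h array 1 member was higher.

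Serum response factor, the product of Srf, drives several immediate early genes and many genes of the actin cytoskeleton through the CArG box. Srf itself had 9.14 and 9.58 untreated, 10.29 and 10.13 at 4 h and 9.06 and 9.13 at 24 h. The 4 h arrays lay above both other pairs, and Srf fell 2.17-fold (log2 difference -1.12 ± 0.13, adjusted p = 0.000167). Its promoter is shown because the gene carries the box its own product binds. The window is the 250 bases before the gene start in RefSeq, build GRCm38.p6, chr17:46556163-46556412, minus strand, with 2 CArG boxes in capitals, starting 82 and 62 bases before the gene start.
Srf: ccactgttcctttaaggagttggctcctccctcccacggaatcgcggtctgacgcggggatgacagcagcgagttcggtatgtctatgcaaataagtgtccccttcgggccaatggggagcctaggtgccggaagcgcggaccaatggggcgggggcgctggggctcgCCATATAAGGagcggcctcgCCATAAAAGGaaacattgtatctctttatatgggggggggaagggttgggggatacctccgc
Counting both strands, the CArG box was found in 1.25% of 10585 such windows, which belong to 8242 of the tested genes. It was found in 6 of 34 windows of the contractile, focal adhesion and SRF genes and in 4 of 23 windows of the immediate early genes, all 4 of them windows of Egr2. These matches are descriptions of sequence. Of the 34 contractile, focal adhesion and SRF genes measured, 12 were lower at 24 h than at 4 h and 2 higher, with a median of -0.22. Of all genes 19.2% were lower and 15.1% higher. At 4 h 7 had been higher than untreated and 1 lower, beside 9.49% and 11.4% of all genes. Without the first 24 h array 5 were lower and without the second 4 h array 7, and the number higher ranged from 0 to 4 as single arrays of either time were left out. Acta2, smooth muscle actin and the usual marker of myofibroblasts, was near the top of its scale throughout, with 15.49 and 15.32 untreated, 15.35 and 15.51 at 4 h and 15.31 and 15.44 at 24 h, and was not called (adjusted p = 0.608). Its difference from 4 h to 24 h was -0.06 in this probe set and -0.63 in its other, dimmer one, which was not tested.

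Growth factor signalling through MAP kinases is shut off by dual-specificity phosphatases, by Sprouty proteins and by Errfi1, an inhibitor of the EGF receptor. Of 16 such feedback genes measured 7 were lower at 24 h than at 4 h and 3 higher, beside 19.2% and 15.1% of all genes. Dusp10, which inactivates p38 and JNK, had 7.1 and 7.36 untreated, 8.73 and 8.8 at 4 h and 6.0 and 6.68 at 24 h. The 24 h arrays lay below every other array, and Dusp10 fell 5.37-fold (log2 difference -2.42 ± 0.25, adjusted p = 6.92e-05). Dusp5, a phosphatase for ERK, kept part of its rise, with 10.01 and 9.79 untreated, 11.72 and 11.89 at 4 h and 10.57 and 10.66 at 24 h. Spry1 went the other way. It was lower at 4 h, at 8.48 and 8.16 from 10.22 and 9.85, and rose 2.24-fold (log2 difference 1.16 ± 0.17, adjusted p = 0.000554), to 9.22 and 9.74. Without the second array of either time 1 member was higher at 24 h instead of 3.

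Several secreted cytokines and growth factors kept part of what they had gained at 4 h. Of 27 genes of gp130 cytokines, growth factors and hormones, 14 were higher than untreated at 4 h and 10 at 24 h, beside 9.49% and 4.51% of all genes. From 4 h to 24 h 11 were lower and 3 higher, beside 19.2% and 15.1% of all genes. Il11, a gp130 cytokine of stromal cells and a direct TGFb target in fibroblasts, had 6.95 and 7.92 untreated, 11.6 and 11.67 at 4 h and 9.87 and 9.16 at 24 h. The 3 pairs did not overlap. Il11 rose 18.3-fold by 4 h (adjusted p = 2.45e-06) and then fell 4.35-fold (log2 difference -2.12 ± 0.28, adjusted p = 0.000268), which left it 4.21-fold above untreated at 24 h. Lif, a second gp130 cytokine, had 7.88 and 7.79 untreated, 10.54 and 10.74 at 4 h and 9.23 and 10.02 at 24 h, and fell 2.02-fold (log2 difference -1.01 ± 0.19, adjusted p = 0.00213). It stayed 3.47-fold higher than untreated. Hbegf, a ligand of the EGF receptor, was 11.58 and 11.88 untreated, 14.08 and 14.26 at 4 h and 13.3 and 13.39 at 24 h. Vegfa, the main angiogenic factor, followed the same order with 9.61 and 9.19 untreated, 11.79 and 11.7 at 4 h and 10.96 and 11.14 at 24 h. From 4 h to 24 h Hbegf fell 1.77-fold (adjusted p = 0.000355) and Vegfa 1.61-fold (adjusted p = 0.00203). Fgf18 peaked and was lost: it was dim in both untreated and both 24 h arrays, and 6.1 and 7.21 at 4 h, at least 3.15-fold above 24 h. Fgf7, the keratinocyte growth factor that fibroblasts make for epithelium, was not called at 4 h and fell late, from 11.89 and 11.59 to 10.08 and 9.81 (3.47-fold, adjusted p = 6.92e-05). Il11, Lif, Hbegf, Vegfa, Fgf18 and Fgf7 had the same call from 4 h to 24 h in both mutants.

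The list of 27 TGFb/Smad target and feedback genes split by time. At 4 h 16 were higher than untreated and none lower, beside 9.49% and 11.4% of all genes. At 24 h 12 were higher and 1 lower, beside 4.51% and 7.14%. From 4 h to 24 h 8 fell and 6 rose, and without the second 24 h array 3 rose. Of all genes 19.2% fell and 15.1% rose between the times. Of the 27, 6 faded, 6 persisted, 4 were late and 2 grew. The first wave included Snai1, a repressor of epithelial genes, with 7.81 and 9.21 untreated, 9.83 and 10.09 at 4 h and 8.17 and 8.12 at 24 h. It fell 3.51-fold (log2 difference -1.81 ± 0.32, adjusted p = 0.00129), and the 24 h arrays lay inside the untreated range. Smad7, which blocks TGFBR1, had 11.26 and 11.05 untreated, 11.56 and 12.49 at 4 h and 11.42 and 11.26 at 24 h, a fall of 1.61-fold (adjusted p = 0.0255). This call was lost without the second 4 h array or without either 24 h array, and neither mutant had it. Skil, the corepressor SnoN, rose further, from 11.85 and 11.56 untreated to 12.08 and 12.2 at 4 h and 12.67 and 12.63 at 24 h. It rose 1.43-fold (log2 difference 0.51 ± 0.09, adjusted p = 0.00133). The ligand's own gene Tgfb1 persisted, with 9.58 and 9.89 untreated, 11.12 and 11.06 at 4 h and 10.83 and 10.9 at 24 h, and no call between the times (difference -0.22 ± 0.1, adjusted p = 0.108). Pdgfb, a mitogen for mesenchymal cells, was 5.62 and 4.31 untreated, 7.6 and 8.99 at 4 h and 6.49 and 8.09 at 24 h, where the arrays of the 2 treated times overlapped.

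Nox4, an NADPH oxidase that makes hydrogen peroxide and is induced in myofibroblasts, had the largest late rise among the named genes above the dim level at both times. Its levels were 9.36 and 9.11 untreated, 9.08 and 8.59 at 4 h and 11.41 and 11.48 at 24 h. Both 24 h arrays lay well above the other 4, and Nox4 rose 6.12-fold (log2 difference 2.61 ± 0.16, adjusted p = 2.32e-06). Its differences in the heterozygous and homozygous arrays were 2.41 and 2.46. Cdkn2b, which encodes the CDK inhibitor p15, was a late response: it went from 12.17 and 12.24 to 13.08 and 12.97 and rose 1.77-fold (log2 difference 0.82 ± 0.12, adjusted p = 0.000505). Tgfbi, a secreted adhesion protein named for its induction by TGFb, fell late: it was 11.13 and 11.62 untreated, 11.43 and 11.11 at 4 h and 9.53 and 9.18 at 24 h, and fell 3.77-fold (log2 difference -1.91 ± 0.35, adjusted p = 0.00168). Ccn2, connective tissue growth factor, was between 15.51 and 15.86 in all 6 arrays, also near the top of its scale, and was not called (adjusted p = 0.473). Whether the scale limits the changes of Acta2 and Ccn2 was not tested.

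Among 28 ligands, receptors and Smads of the TGFb and BMP family, 8 were higher at 24 h than at 4 h and 4 lower, or 5 higher without the second array of either time. Of all genes 15.1% were higher and 19.2% lower. The type II receptor gene Tgfbr2 was lower at 4 h and came back, with 11.55 and 11.4 untreated, 10.9 and 10.81 at 4 h and 11.51 and 11.62 at 24 h. It rose 1.63-fold (log2 difference 0.71 ± 0.14, adjusted p = 0.00313). Tgfbr1 had 10.1 and 10.18 untreated, 10.74 and 10.64 at 4 h and 10.46 and 10.18 at 24 h, with an adjusted p of 0.0124 for its fall from 4 h. That call was lost without the second 24 h array, and both other probe sets of Tgfbr1 moved the opposite way. Tgfbr3, the co-receptor betaglycan, was 8.56 and 9.1 untreated, 7.29 and 6.26 at 4 h and 5.97 and 5.38 at 24 h, below untreated at both times. Inhba, which encodes the activin A subunit, kept part of its rise at 13.16 and 13.31, from 13.99 and 13.7 at 4 h and 12.43 and 12.53 untreated. Fst, encoding the activin antagonist follistatin, fell late, from 13.47 and 13.24 to 12.01 and 12.29 (2.31-fold, adjusted p = 0.00151). Bmp4 fell at 4 h and further by 24 h, with 11.15 and 11.24 untreated, 10.12 and 10.22 at 4 h and 9.37 and 9.49 at 24 h. Id1, a BMP target that holds back differentiation, had 10.91 and 12.42 untreated, 12.16 and 12.35 at 4 h and 10.57 and 10.29 at 24 h, and fell 3.54-fold (log2 difference -1.82 ± 0.34, adjusted p = 0.002). Of 9 BMP target Id genes 3, Id1 among them, were lower at 24 h, and without the second 4 h array or either 24 h array 1 was.

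**Figure D3:**
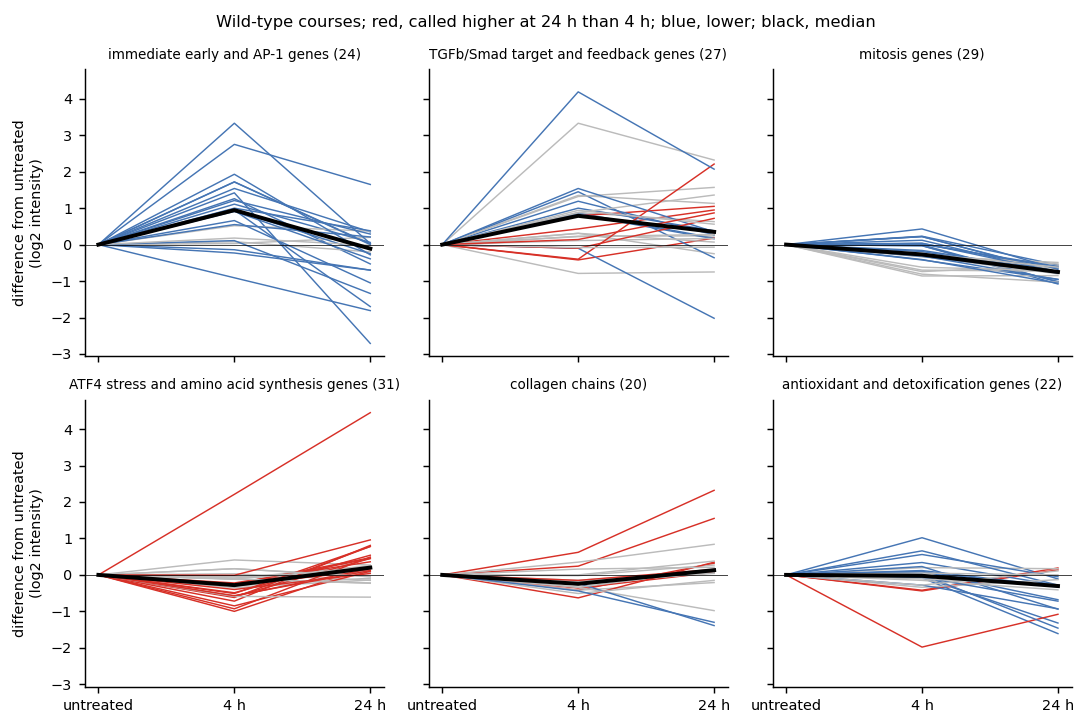
Log2 difference from untreated wild-type cells (vertical axis) at 4 h and 24 h for the measured members of 6 gene lists, 1 line per gene; red lines are genes called higher at 24 h than at 4 h, blue lines genes called lower, grey lines genes not called, and the black line is the list median. Of the immediate early genes 20 of 24 were lower at 24 h, and of the ATF4 genes 17 of 31 were higher.

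Persisting responses, which had no call from 4 h to 24 h, included large ones. Aldh1a3, an enzyme that makes retinoic acid, was 7.02 and 5.13 untreated, 10.06 and 11.37 at 4 h and 8.94 and 10.69 at 24 h. The treated arrays lay above the untreated ones at both times and overlapped each other, and the folds over untreated were 24.9 and 13.4. The cadherin gene Cdh6 was 5.06 and 5.98 untreated, 8.28 and 7.91 at 4 h and 9.0 and 8.25 at 24 h. Olfm2, an olfactomedin linked to smooth muscle differentiation, was dim in both untreated arrays (3.89 and 4.86), 7.0 and 6.45 at 4 h and 7.3 and 7.75 at 24 h, and rose at least 3.31-fold at 4 h and at least 5.75-fold at 24 h. Has2, the hyaluronan synthase of mesenchyme, was 11.28 and 10.73 untreated, 12.66 and 12.56 at 4 h and 12.38 and 12.53 at 24 h. Its 24 h arrays lay below the 4 h arrays by less than limma could call (difference -0.15, adjusted p = 0.477). Rspo2, a secreted enhancer of Wnt signalling, persisted as a fall, with 9.18 and 9.26 untreated, 5.19 and 5.9 at 4 h and 4.89 and 4.6 at 24 h, both dim. It was 12.8-fold lower at 4 h and at least 18.7-fold lower at 24 h. Ptx3, a soluble pattern-recognition protein, was 11.76 and 11.08 untreated, 8.38 and 8.83 at 4 h and 8.1 and 7.92 at 24 h. Responses that grew included Wnt9a, a Wnt ligand, with 7.48 and 7.64 untreated, 8.27 and 8.47 at 4 h and 10.17 and 10.05 at 24 h, 3 pairs that did not overlap. It rose 3.34-fold (log2 difference 1.74 ± 0.13, adjusted p = 4.89e-06). Mmp9, a gelatinase, also grew, to 10.31 and 10.51 from 8.82 and 9.16 at 4 h and 7.63 and 7.46 untreated.

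Among the collagen genes, Col5a3 and Col7a1 rose late and Col1a1 rose after a dip at 4 h. Of 20 collagen chains measured none was higher and 1 lower than untreated at 4 h, beside 9.49% and 11.4% of all genes. At 24 h 2 were higher and 3 lower than untreated, beside 4.51% and 7.14%. From 4 h to 24 h 6 rose and 2 fell, with a median of 0.34, but 3 rose without the first 4 h array or without the second 24 h array, and 1 fell without the second 4 h or the first 24 h array. Over all genes tested 15.1% rose and 19.2% fell between the times. Col5a3, a minor chain of type V collagen, had 8.71 and 8.41 untreated, 8.94 and 9.43 at 4 h and 10.43 and 11.33 at 24 h. Both 24 h arrays lay above the rest, and Col5a3 rose 3.25-fold (log2 difference 1.7 ± 0.31, adjusted p = 0.00176). Col7a1, of the anchoring fibrils, rose 2.47-fold from 4 h, to 10.46 and 10.31 (adjusted p = 0.00492). Col1a1, the main chain of type I collagen, was 15.34 and 15.02 untreated, 14.89 and 14.64 at 4 h and 15.43 and 15.58 at 24 h. It had fallen 1.33-fold by 4 h and then rose 1.67-fold (log2 difference 0.74 ± 0.11, adjusted p = 0.000505), and against untreated it was not called at 24 h. Col6a2 of type VI collagen fell late, from 11.27 and 11.21 to 10.26 and 9.9. Of 17 collagen processing and cross-linking genes 5 rose and 1 fell; without the second 24 h array 2 rose, and without the first 4 h array 2 fell. Plod2, the lysyl hydroxylase of collagen telopeptides, had 12.44 and 12.03 untreated, 12.3 and 11.84 at 4 h and 13.38 and 13.39 at 24 h, and rose 2.49-fold (log2 difference 1.32 ± 0.15, adjusted p = 0.000143).

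Of 31 elastic fibre, matricellular and proteoglycan genes 9 rose and 6 fell from 4 h to 24 h, or 5 and 4 rose without the second 4 h or the second 24 h array. Eln, elastin, had 10.08 and 9.89 untreated, 9.82 and 9.82 at 4 h and 10.78 and 11.37 at 24 h, with the 24 h pair above the others, and rose 2.39-fold (log2 difference 1.26 ± 0.19, adjusted p = 0.000554). Vcan, the large proteoglycan versican, rose 2.06-fold, to 12.23 and 12.08 from 11.18 and 11.05. Fn1, fibronectin, rose by the smaller factor of 1.29, from 14.84 and 14.83 to 15.16 and 15.25 (adjusted p = 0.0012). Efemp1, fibulin-3, went the other way, from 11.91 and 12.08 at 4 h to 10.09 and 10.38 at 24 h, and fell 3.39-fold (log2 difference -1.76 ± 0.28, adjusted p = 0.000814). Among 26 matrix proteases and inhibitors 4 rose and 6 fell, or 3 fell without the second 4 h array. Over all genes tested 15.1% rose and 19.2% fell, close to the shares of this list and, for falls, of the list before it. Plaur, the urokinase receptor, faded from 12.48 and 12.17 at 4 h to 10.95 and 10.78 at 24 h, beside 10.44 and 11.24 untreated. Adamts4, a protease that cleaves aggrecan and versican, rose late, from 7.45 and 7.56 to 9.47 and 8.67.

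**Figure D4:**
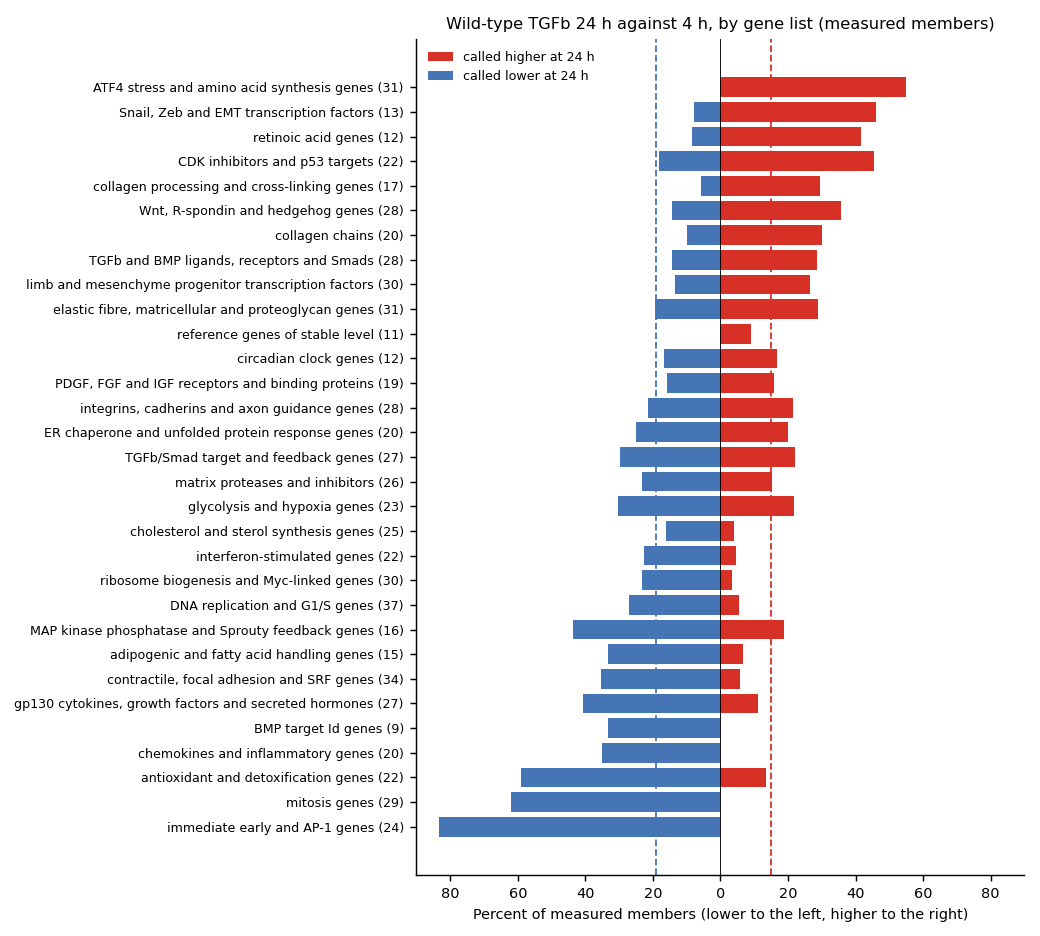
Percent of the measured members of 31 gene lists (member number in brackets) that limma called higher at 24 h than at 4 h (red, to the right) or lower (blue, to the left); dashed lines mark the same shares over all 10078 genes, 15.1% and 19.2%. Immediate early, mitosis and antioxidant genes have the longest bars to the left and ATF4 genes the longest to the right.

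The late falls included matricellular, adhesion and metabolic genes. Ccn3, a matricellular protein of the CCN family, had 10.08 and 8.85 untreated, 8.37 and 9.87 at 4 h and 5.0 and 6.57 at 24 h. The untreated and 4 h arrays overlapped and the 24 h arrays lay below all 4, and Ccn3 fell 10.1-fold (log2 difference -3.34 ± 0.58, adjusted p = 0.00134), a size made uncertain by 1 dim array at 24 h. Lmcd1, a LIM domain cofactor, had 7.55 and 6.71 untreated and 6.98 and 8.74 at 4 h and was dim in both arrays at 24 h, at 2.3 and 4.65, at least 7.25-fold lower than at 4 h (adjusted p = 0.00129). Cbr2, a carbonyl reductase, fell at least 5.39-fold to a dim level, from 6.67 and 8.2. Itga8, the integrin chain that pairs with beta-1 to bind nephronectin and fibronectin, had 9.89 and 9.33 untreated, 9.02 and 9.54 at 4 h and 6.37 and 7.51 at 24 h, and fell 5.06-fold (log2 difference -2.34 ± 0.42, adjusted p = 0.00164). Krt19, a keratin and the epithelial marker called above, had 8.26 and 9.74 untreated, 10.08 and 9.8 at 4 h and 7.47 and 6.88 at 24 h, and fell 6.78-fold (log2 difference -2.76 ± 0.45, adjusted p = 0.000947). The guanylate-binding protein gene Gbp2, which interferon induces, was 8.36 and 7.63 untreated, 7.2 and 8.18 at 4 h and 5.05 and 5.42 at 24 h, and fell 5.5-fold (log2 difference -2.46 ± 0.34, adjusted p = 0.000371). Of 22 antioxidant and detoxification genes 13 fell from 4 h to 24 h and 3 rose, with a median of -0.53, beside 19.2% and 15.1% of all genes. The late falls of this list included Gstm1, a glutathione transferase, from 7.4 and 8.03 to 5.88 and 6.51, and Mgst1, a membrane-bound one, from 10.43 and 11.0 to 9.28 and 9.2. With array weights 6 members of the list were lower and with the 6 wild-type arrays alone 2, and without the second 4 h array 1 was higher.

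Mitosis genes encode the kinases, cyclins and ubiquitin enzymes that drive chromosome separation. Of 29 measured, 18 were lower at 24 h than at 4 h and none higher, with a median of -0.57, beside 19.2% of all genes lower. Against untreated 7 were lower at 4 h and 27 at 24 h, beside 11.4% and 7.14% of all genes, and none was higher at either time. In the time classes 16 were late, 4 persisted and 2 grew. Ube2c, which supplies ubiquitin to the anaphase-promoting complex, had 11.6 and 12.14 untreated, 12.15 and 12.45 at 4 h and 11.24 and 11.15 at 24 h. Ccnb2, cyclin B2, had 10.55 and 10.92 untreated, 10.72 and 10.69 at 4 h and 9.68 and 9.62 at 24 h, and Cdc20, an activator of the same complex, 12.09 and 12.46 untreated, 12.48 and 12.31 at 4 h and 11.62 and 11.39 at 24 h. In all 3 the 24 h arrays lay below the other 4, and the falls from 4 h were 2.15-fold (adjusted p = 0.00048), 2.07-fold (adjusted p = 0.000112) and 1.86-fold (adjusted p = 0.000279). Cdk1, the mitotic kinase, fell 1.72-fold, from 12.32 and 12.41 to 11.67 and 11.5. Mki67, the proliferation marker Ki-67, was already lower at 4 h and had no call between the times, with 11.32 and 11.33 untreated, 10.84 and 10.1 at 4 h and 10.43 and 10.53 at 24 h. With the 6 wild-type arrays alone 4 members fell from 4 h to 24 h, and without the first 4 h array 2 were higher.

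The promoters of Ube2c, Ccnb2 and Cdc20 are shown because they carry the letters of 2 elements typical of mitosis genes. These are the CHR element (searched as TTTGAA), through which such genes are repressed in resting cells, and the CCAAT box (searched as CCAAT), bound by the activator NF-Y. Both are in capitals, on either strand. The windows are the 250 bases before the gene start in RefSeq, build GRCm38.p6: chr2:164769679-164769928, plus strand, for Ube2c; chr9:70421555-70421804, minus strand, for Ccnb2; and chr4:118437344-118437593, minus strand, for Cdc20.
Ube2c: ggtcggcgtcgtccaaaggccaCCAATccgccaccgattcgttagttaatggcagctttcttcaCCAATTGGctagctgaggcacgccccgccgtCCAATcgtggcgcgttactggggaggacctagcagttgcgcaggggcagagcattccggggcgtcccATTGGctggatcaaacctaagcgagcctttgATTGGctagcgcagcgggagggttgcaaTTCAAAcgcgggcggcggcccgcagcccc
Ccnb2: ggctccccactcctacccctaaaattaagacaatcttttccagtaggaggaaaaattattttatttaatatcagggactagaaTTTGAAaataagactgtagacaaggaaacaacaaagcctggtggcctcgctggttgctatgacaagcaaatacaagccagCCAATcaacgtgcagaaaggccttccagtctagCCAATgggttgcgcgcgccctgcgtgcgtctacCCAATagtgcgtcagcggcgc
Cdc20: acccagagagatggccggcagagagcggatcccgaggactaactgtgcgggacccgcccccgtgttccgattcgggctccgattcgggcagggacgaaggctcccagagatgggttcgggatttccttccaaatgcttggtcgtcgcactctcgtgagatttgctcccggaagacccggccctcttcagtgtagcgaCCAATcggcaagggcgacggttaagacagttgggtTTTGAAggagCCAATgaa
The CHR letters start 29 bases before the gene start in Ube2c, 167 in Ccnb2 and 18 in Cdc20, and 2 of the CCAAT boxes of Ube2c overlap on opposite strands. In Ccnb2 the CHR letters lie farther from the gene start than every CCAAT box (87, 54 and 21 bases), and in Ube2c nearer than any. Whether the letters act as a CHR element was not tested. The CHR letters were found in 10 of 27 windows of the mitosis genes (37.0%) and in 10.4% of all 10585 windows. The CCAAT letters were found in 23 of the 27 (85.2%) and in 35.3% of all. In the 37 windows of the DNA replication and G1/S genes the CHR letters were found in 13.5% and the CCAAT letters in 62.2%. In the other lists searched the CCAAT letters were found in 33.3% (retinoic acid genes) to 50.0% (collagen chains) of windows. A match shows only that the letters are present.

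Of 37 DNA replication and G1/S genes 10 fell from 4 h to 24 h and 2 rose, with a median of -0.24, and without the second array of either time 6 were lower and 1 higher. Of all genes 19.2% fell and 15.1% rose. Tk1, the thymidine kinase of S phase, was 9.41 and 10.26 untreated, 9.7 and 9.47 at 4 h and 8.3 and 8.12 at 24 h, and fell 2.59-fold (log2 difference -1.37 ± 0.22, adjusted p = 0.000937). Gins2, a subunit of the replicative helicase, fell 2.65-fold from 4 h (adjusted p = 0.000331). CDK inhibitors and p53 targets went both ways, with 10 of 22 higher at 24 h and 4 lower, or 2 lower without the second array of either time. Gadd45a, a stress-induced p53 target, was a late response: it went from 9.09 and 8.82 to 10.56 and 10.42 and rose 2.9-fold (log2 difference 1.53 ± 0.25, adjusted p = 0.000847). Btg2, an antiproliferative p53 target that also responds as an immediate early gene, faded from 11.64 and 12.08 at 4 h to 10.23 and 10.03 at 24 h, beside 10.33 and 10.78 untreated.

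Retinol is oxidised to retinaldehyde, which the ALDH1A enzymes turn into retinoic acid and DHRS3 reduces back to retinol. Retinoic acid acts through receptors such as RARB, whose gene is itself a classical target. Of 12 measured genes of this pathway 5 were higher at 24 h than at 4 h and 1 lower, beside 15.1% and 19.2% of all genes. The receptor gene Rarb was 5.15 and 5.02 untreated, 2.52 and 2.09 at 4 h, dim in both arrays, and 7.06 and 7.29 at 24 h. The untreated arrays stood just above the dim level, so the size of the fall of Rarb at 4 h is not known. Both 24 h arrays lay well above the untreated ones, and Rarb rose at least 4.51-fold from 4 h (adjusted p = 8.57e-07) and 4.24-fold from untreated. Dhrs3 had 8.77 and 8.74 untreated, 6.71 and 6.02 at 4 h and 9.27 and 9.72 at 24 h. The 3 pairs did not overlap, and Dhrs3 rose 8.77-fold (log2 difference 3.13 ± 0.19, adjusted p = 2.32e-06) after a fall of 5.25-fold by 4 h. Aldh1a2, the main embryonic enzyme of retinoic acid synthesis, was another late response, from 7.99 and 7.55 untreated and 8.51 and 7.94 at 4 h to 9.56 and 10.29 at 24 h, and rose 3.26-fold (log2 difference 1.7 ± 0.26, adjusted p = 0.000664). Crabp1, which binds retinoic acid in the cytoplasm, fell late, from 12.35 and 12.38 to 11.18 and 10.73. The promoter of Rarb is shown for its receptor repeat, in capitals, searched on both strands as GTTCA, 6 bases of any kind and GTTCA. The window is chr14:16575477-16575726, minus strand, the 250 bases before the gene start in RefSeq, build GRCm38.p6, and the repeat starts 52 bases before the gene start.
Rarb: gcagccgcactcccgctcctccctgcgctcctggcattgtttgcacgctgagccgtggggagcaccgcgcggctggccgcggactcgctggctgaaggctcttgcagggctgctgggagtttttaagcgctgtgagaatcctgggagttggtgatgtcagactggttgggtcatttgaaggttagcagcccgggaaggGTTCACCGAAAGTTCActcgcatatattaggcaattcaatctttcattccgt
The repeat was found in 3 of 10585 windows (0.0283%) and in 1 of the 15 windows of the retinoic acid genes, that of Rarb.

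Other genes that had fallen at 4 h came back, wholly or in part. Gas1, a co-receptor for hedgehog ligands that is high in resting fibroblasts, was 10.98 and 10.38 untreated, 7.6 and 7.31 at 4 h and 9.49 and 9.44 at 24 h. The 3 pairs did not overlap; Gas1 had fallen 9.36-fold by 4 h and then rose 4.03-fold (log2 difference 2.01 ± 0.34, adjusted p = 0.00106). Gli2, the activator of the hedgehog pathway, was 9.02 and 9.27 untreated, 7.76 and 7.15 at 4 h and 8.58 and 8.33 at 24 h, a rise of 2.0-fold from 4 h whose call was lost without the second 4 h array. The hedgehog receptor gene Ptch1 was lower at both times, with 9.27 and 9.29 untreated, 8.71 and 8.31 at 4 h and 8.23 and 8.27 at 24 h. Of 28 Wnt, R-spondin and hedgehog genes 10 rose from 4 h to 24 h and 4 fell, and 0 to 2 fell without the second 4 h array or either 24 h array. Pdgfra, the PDGF receptor of mesenchymal progenitors, was 7.9 and 7.81 untreated, 5.35 and 4.08 at 4 h and 6.45 and 6.45 at 24 h. It rose 3.32-fold (log2 difference 1.73 ± 0.32, adjusted p = 0.00187), a size left uncertain by 1 dim array at 4 h. Of 30 limb and mesenchyme progenitor transcription factors 13 were lower than untreated at 4 h and 8 at 24 h, beside 11.4% and 7.14% of all genes. Between the times 8 rose and 4 fell, beside 15.1% and 19.2% of all genes. Rises in this list and in the Wnt, R-spondin and hedgehog list lay above the share of all genes and falls below it. Foxc1, a forkhead factor of mesenchyme, went from 10.39 and 10.47 to 9.49 and 9.14 at 4 h and back to 10.26 and 10.16 at 24 h. The orphan receptor gene Nr2f1 had 9.29 and 8.98 untreated, 7.1 and 7.33 at 4 h and 9.13 and 9.24 at 24 h, and rose 3.91-fold (log2 difference 1.97 ± 0.23, adjusted p = 0.000138). Prrx1, a homeobox factor of limb mesenchyme, stayed low, with 12.72 and 12.73 untreated, 11.73 and 12.01 at 4 h and 12.09 and 11.86 at 24 h, and its paralogue Prrx2 fell late, from 11.07 and 11.02 to 9.44 and 8.65. Of 13 Snail, Zeb and related factors 6 rose and 1 fell from 4 h to 24 h, or 2 fell without the first 24 h array. Zeb2, a repressor of E-cadherin, rose back from 9.46 and 8.61 at 4 h to 10.25 and 10.48 at 24 h, beside 10.34 and 9.81 untreated, while Snai1 fell.

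ATF4 is a transcription factor translated when amino acids run short or stress kinases are active, and its targets make and import amino acids. Of 31 measured genes of this programme 17 were higher at 24 h than at 4 h and none lower, with a median of 0.45, beside 15.1% of all genes higher. At 4 h 8 had been lower than untreated and 1 higher, beside 11.4% and 9.49% of all genes. At 24 h 5 were higher than untreated and none lower, beside 4.51% and 7.14%. Without the second 24 h array 10 were higher, with array weights 8 and with the 6 wild-type arrays alone 6. Without the first array of 4 h 2 members were lower and without that of 24 h 1. Fgf21, a stress hormone and the list's largest rise, was dim in both untreated arrays (2.5 and 2.63), 4.36 and 5.18 at 4 h and 6.88 and 7.16 at 24 h. It rose 4.75-fold (log2 difference 2.25 ± 0.4, adjusted p = 0.00153), and the fold is uncertain because 1 array at 4 h was dim. Trib3, a pseudokinase that feeds back on ATF4, was 9.48 and 9.47 untreated, 8.26 and 8.68 at 4 h and 9.81 and 9.62 at 24 h, and rose 2.36-fold (log2 difference 1.24 ± 0.18, adjusted p = 0.000505). Slc6a9, a glycine transporter, had its lowest levels at 4 h, with 7.39 and 7.15 untreated, 6.3 and 6.8 at 4 h and 8.02 and 8.15 at 24 h, and rose 2.9-fold (log2 difference 1.53 ± 0.19, adjusted p = 0.0002). Nupr1, a small stress-induced nuclear protein, rose late, from 13.08 and 13.2 to 13.89 and 14.34. Slc7a11, the cystine transporter, was dim at 4 h and 5.45 and 6.23 at 24 h, at least 1.79-fold higher, a call lost without the second array of either time. Asns, asparagine synthetase, was not called (difference 0.35 ± 0.15, adjusted p = 0.0869).

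The promoters of Fgf21 and Slc7a11 are shown for the core of the amino acid response element, in capitals, searched as TGATGNAA on both strands. The windows are the 250 bases before the gene start in RefSeq, build GRCm38.p6, at chr7:45615491-45615740 for Fgf21 and chr3:50443614-50443863 for Slc7a11, both on the minus strand.
Fgf21: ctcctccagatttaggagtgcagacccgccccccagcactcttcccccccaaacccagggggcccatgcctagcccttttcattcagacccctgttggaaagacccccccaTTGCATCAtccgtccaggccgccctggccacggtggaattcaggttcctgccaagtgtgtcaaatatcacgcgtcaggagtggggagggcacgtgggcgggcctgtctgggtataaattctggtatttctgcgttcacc
Slc7a11: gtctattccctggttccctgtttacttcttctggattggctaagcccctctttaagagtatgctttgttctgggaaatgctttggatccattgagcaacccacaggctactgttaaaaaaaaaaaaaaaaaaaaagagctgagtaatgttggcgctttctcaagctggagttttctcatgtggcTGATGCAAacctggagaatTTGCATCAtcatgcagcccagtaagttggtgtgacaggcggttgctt
The core starts 139 bases before the gene start in Fgf21, and 66 and 47 bases before it in Slc7a11. It was found in 1.95% of all 10585 windows and in 6 of 33 windows of the ATF4 genes, those of Chac1, Slc7a11, Asns, Fgf21, Nupr1 and Vldlr. Asns carries the letters and was not called.

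The same comparison in the mutant fibroblasts rests on arrays of its own, within the same fit. The spread of each gene was pooled over all 18 arrays, so calls shared between genotypes are not independent. Limma called 3242 genes in heterozygous cells (32.2%), 1502 higher (14.9%) and 1740 lower (17.3%), and 3722 in homozygous cells (36.9%), 1506 higher (14.9%) and 2216 lower (22.0%). Of the 1517 genes higher at 24 h in wild-type cells, 1014 were also higher in heterozygous cells, which is 66.8% of the wild-type list and 67.5% of the heterozygous one. In homozygous cells 1051 were, 69.3% and 69.8% of the lists. Of the 1939 lower genes, 1285 were lower in heterozygous cells (66.3% and 73.9%) and 1509 in homozygous cells (77.8% and 68.1%). A call in the opposite direction was found for 1 gene, Spred2, an inhibitor of MAP kinase signalling, which was higher at 24 h in wild-type cells (difference 0.33) and lower in homozygous cells (-0.36). In wild-type cells its other probe set moved the opposite way (-0.33), the call was lost without the second 4 h array or either 24 h array, and the interaction was not called. All 3 genotypes called 919 of the genes higher and 1238 lower. The 55 genes that turned in wild-type cells had the same call from 4 h to 24 h in both mutants.

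The difference between the genotypes was tested as an interaction. Limma called 0 genes for heterozygous minus wild type and 0 for homozygous minus wild type, with 416 and 401 genes at an unadjusted p under 0.05 and smallest adjusted p of 0.968 and 0.67. The median standard error of these differences was 0.22, so small differences between genotypes could not be seen, and without the first 4 h array 137 and 142 genes were called. The differences of single genes can be set side by side. Sema7a fell by 4.31 in wild-type cells, and its differences were -4.15 in heterozygous and -4.1 in homozygous cells. Rarb had differences of 5.23 and 3.71 in the mutants and Dhrs3 2.24 and 2.22. Il11 had -2.27 and -1.64, beside -2.12 in wild-type cells. Of the 24 immediate early genes 22 were lower in heterozygous and 21 in homozygous cells, of the 29 mitosis genes 21 and 24, and of the 31 ATF4 genes 13 and 15 were higher.

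**Figure D5:**
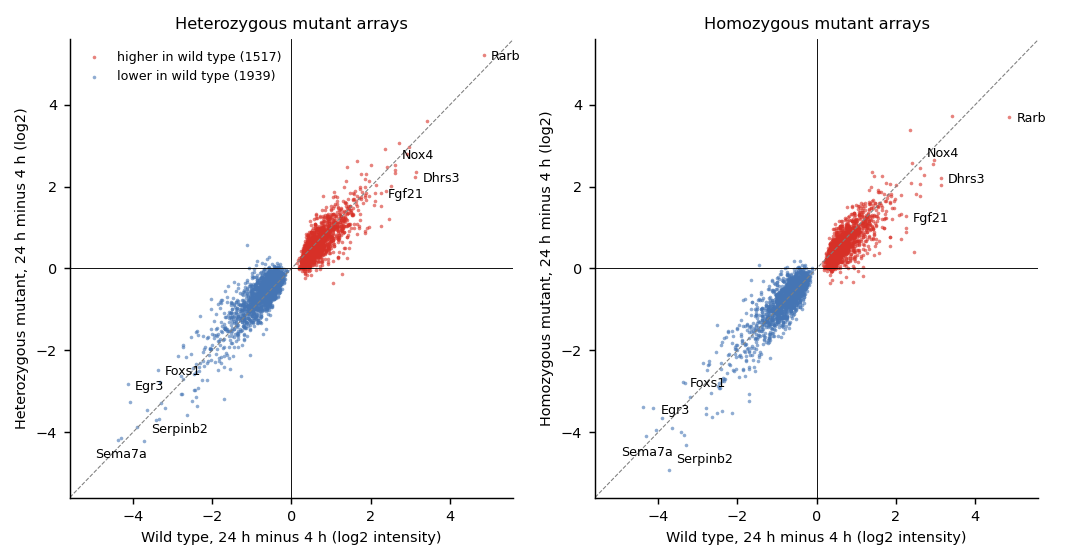
Log2 difference from 4 h to 24 h of TGFb in wild-type cells (horizontal axis) against the same difference in heterozygous (left) and homozygous (right) mutant cells (vertical axis), for the 3456 genes called in wild-type cells; red genes were called higher and blue genes lower there, and the dashed line marks equal differences. At least 98.4% of the points of each direction lie in the quadrants of equal sign, with Sema7a and Egr3 at the lower end and Rarb at the upper end in both panels.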

How the data were processed

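Total RNA was labelled by a single amplification from 2 ug, per the labels, and hybridised to Affymetrix mouse arrays. The authors deposited linear intensities of GCRMA, a method that subtracts background by probe sequence, aligns the arrays and combines probes into probe sets; the tool, without a version, comes from the submitters' processing notes. They were converted to log2 with no further normalization, and no slide or scan batch is given in the sources used here. Of 45101 probe sets 64 were controls, 34945 had a single symbol, 932 several and 9160 none. Probe sets with log2 of at least 5 in at least 2 of 18 arrays were kept (17442 with a single symbol), and each gene was read from its brightest one, which gave 10078 genes, 10067 of them found in the RefSeq gene table.

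All 18 arrays were fitted in R 4.3.3 with limma 3.58.1, as 9 group means with an intensity trend (9 residual degrees of freedom, prior 3.78), with Benjamini-Hochberg adjustment over 10078 genes. On simulated arrays for 24 h against 4 h in 10078 genes, limma recovered 40.3% of 1.5-fold, 73.1% of 2-fold and 98.5% of 4-fold changes, with 7 false calls. The simulation gave each gene the same spread in all arrays. The real wild-type pairs spread more (SD 0.387 at 4 h and 0.321 at 24 h) than the mutant pairs. These rates can therefore be too favourable for the wild-type comparison. Tables were made with Python 3.11.15 and pandas 2.3.3. The spread of only 2 arrays per group limits precision.

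The comparison, the 31 pathway lists and the 7 marker lists (914 genes, 732 measured) were chosen with earlier results of these data known. Genes were named by a rule: among called genes whose 4 h and 24 h arrays do not overlap, the 12 largest rises and falls, the 5 largest bounds each way, the 4 largest of each time class and direction, up to 4 called members of each list, and 18 key genes (17 measured). It gave 173 genes. A further 19, among them Spred2, Fos, Egr1, Hbegf, Vegfa, Has2, Fn1, Cdk1, Mki67, Cdc20, Cdkn2b, Fgf7, Gli2, Ptch1, Prrx1, Trib3, Nupr1 and Asns, were chosen after their values were seen, as were the promoters shown and the letters searched. Alternatives were other filters, probe set rules, scalings and log offsets, array weights, fewer arrays, replicate blocks and leaving out single arrays.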

Additional observations from a re-analysis of the deposited data

How the results depend on the processing

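The number of 24 h against 4 h calls depended on how the spread was estimated. Of the 3456 called genes 98.4% kept their sign with the mean of probe sets and 99.5% without cross-hybridizing probe sets; in the other settings the sign could hardly turn, since the arrays of 3447 do not overlap. Equal array medians, quantile normalization, adding 16 before log2, a fit without the intensity trend, a mean log2 of at least 6 and dropping cross-hybridizing probe sets kept 93.9 to 99.8% of the calls that could still be made. The mutant and wild-type pairs spread unequally, and settings that estimate the spread from wild-type arrays call far fewer genes; the cause of that spread was not tested. Under array weights, only the groups compared, only the 6 wt arrays and, added after seeing the data, a crossed replicate block with only the 6 wt arrays, the counts were in that order as follows. From 4 h to 24 h they were 1544, 0, 273 and 1418 instead of 3456; at 4 h against untreated 194, 24, 109 and 502 instead of 2108; and at 24 h against untreated 324, 75, 161 and 578 instead of 1175. Faded responses numbered 115, 0, 44 and 257 instead of 1275, partly faded 11, 0, 4 and 24 instead of 54, persisted 45, 8, 25 and 93 instead of 260, grew 1, 0, 1 and 19 instead of 40, late 167, 0, 74 and 290 instead of 589, and turned 1, 0, 1 and 6 instead of 55. Of the gene list members 164, 0 and 73 were called in the first 3 of these settings instead of 313. Of the 175 named genes called, 124, 0 and 72 kept their call in those 3 settings. With the crossed block and only the 6 wt arrays 155 did. Homozygous cells had 5723 calls with array weights instead of 3722. Without the filter on dim probe sets 25 responses grew, 26 turned and the interactions had 3 and 3 calls.

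Leaving out 1 wild-type array at a time, where a lone array is assumed to vary like the others, gave 1958 to 4172 genes from 4 h to 24 h, 967 to 3382 at 4 h and 599 to 1881 at 24 h against untreated. The classes ranged over 488 to 2270 faded, 26 to 100 partly faded, 152 to 316 persisted, 22 to 47 grew, 292 to 1134 late and 21 to 214 turned, and 231 to 349 list members were called. Interactions ranged from 0 to 137 and 0 to 142, heterozygous calls from 3184 to 3875 and homozygous ones from 3654 to 4341. Of 175 named genes called, 130 kept their call without any 1 treated wild-type array.

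Replicate numbers do not pair the arrays by any label. A replicate block within genotype gave 3492 calls from 4 h to 24 h, with 63 responses that grew and 83 that turned, and a block over all groups 3394. Deviations of the untreated wild-type arrays correlated with same-numbered arrays at -0.49 (4 h) and -0.66 (24 h), against 0.57 between 4 h and 24 h and 0.38 to 0.61 in the mutants, and the sex-linked genes match the untreated arrays to the treated ones of the other number, so a crossed block within genotype was added; it gave 4488 calls from 4 h to 24 h and 2011 at 24 h against untreated, with 119 partly faded, 447 persisted, 132 grew, 939 late and 172 turned. Averaging probe sets per gene, Nes reversed to 0.55 (adjusted p = 0.0354), Tgfbr1 to 0.41 (adjusted p = 0.179) and Spred2 to -0.0 (adjusted p = 0.996). Arrays have no read depth; the dim level limits what small folds can be seen.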

Other observations

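The counts of gene lists not described above stand beside 15.1% of all genes higher and 19.2% lower from 4 h to 24 h in wild-type cells. Against untreated the shares were 9.49% higher and 11.4% lower at 4 h, and 4.51% and 7.14% at 24 h. No test sets any of the gene lists, here or above, apart from all genes. Of 20 chemokines and inflammatory genes 7 were lower at 24 h and none higher; without the second 4 h array 3 were lower, and without the first 24 h array 1 was higher. Ccl20, a chemokine for dendritic cells and lymphocytes, had 7.45 and 7.01 untreated, 9.09 and 9.3 at 4 h and 7.29 and 8.19 at 24 h, and fell 2.73-fold (log2 difference -1.45 ± 0.27, adjusted p = 0.00202). Cxcl14, a chemokine made by fibroblasts, faded in the same way, from 9.78 and 10.44 at 4 h to 8.85 and 8.91 at 24 h. Of 30 ribosome biogenesis and Myc-linked genes 8 were higher than untreated at 4 h and 1 at 24 h, and 7 fell and 1 rose between the times, or 4 fell without the second 24 h array and 0 to 4 rose without a treated array. Rrp9, needed to process ribosomal RNA, was 8.04 and 8.45 untreated, 8.88 and 9.28 at 4 h and 8.31 and 8.31 at 24 h. Of 23 glycolysis and hypoxia genes 7 fell and 5 rose, or 2 and 1 rose without the second 4 h or the second 24 h array. Slc2a1, the glucose transporter GLUT1, was 12.3 and 12.12 untreated, 12.94 and 13.02 at 4 h and 12.32 and 12.17 at 24 h, and fell 1.66-fold (log2 difference -0.73 ± 0.1, adjusted p = 0.000304). Of 15 adipogenic and fatty acid handling genes 5 fell and 1 rose; without the second 4 h array 1 fell, without the first 24 h array 3 fell, and without the second 24 h array 2 rose. Lpl, lipoprotein lipase, fell at 4 h and further at 24 h, with 8.22 and 8.26 untreated, 7.77 and 7.75 at 4 h and 6.6 and 6.23 at 24 h.

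Other lists had calls in both directions, again beside 34.3% of all genes called. Of 20 ER chaperone and unfolded protein response genes 4 rose and 5 fell; without the second 4 h array 2 rose, and without the second 24 h array 2 rose and 3 fell. Sdf2l1, an ER chaperone cofactor, fell late, from 8.69 and 8.95 to 7.95 and 7.75. Of 28 integrins, cadherins and axon guidance genes 6 rose and 6 fell, and of 19 PDGF, FGF and IGF receptors and binding proteins 3 rose and 3 fell. Of 25 cholesterol and sterol synthesis genes 1 rose and 4 fell; without the first 4 h array 3 rose, and without the second 2 fell. Of 12 circadian clock genes 2 rose and 2 fell. Without the first 24 h array 4 of these rose, without the second 1 rose and 0 fell, and without the second 4 h array 1 fell. Nr1d2, the clock repressor REV-ERB beta, was 11.44 and 11.12 untreated, 10.66 and 10.22 at 4 h and 11.3 and 11.64 at 24 h. Of 11 genes usually taken as stable references 1 was called, and 4 were higher without the first 4 h array.

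Of 22 interferon-stimulated genes 6 were lower than untreated at 4 h and 9 at 24 h, with medians of -0.83 and -1.51, and none was higher. Of all genes 11.4% were lower than untreated at 4 h and 7.14% at 24 h. Gbp2, described above, kept its call from 4 h to 24 h without any 1 treated array. Bst2, a virus tether, was 11.34 and 9.3 untreated, 9.26 and 11.88 at 4 h and 7.35 and 9.26 at 24 h, so arrays of 1 group differed by more than the groups. Its fall from 4 h was called (adjusted p = 0.0391), but not without the second 4 h or the first 24 h array. From 4 h to 24 h 5 of the 22 fell and 1 rose; 8 were lower without the first 4 h array, 1 without the second 4 h or the first 24 h array, and 2 were higher without either untreated array. The array of each pair with the higher Bst2 was the one high in Xist and in the macrophage marker sum, and the part of these in the result was not tested.

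Of 20 macrophage and blood cell markers tested 17 had differences below 0 from 4 h to 24 h (median -0.7, and -0.55 and -0.87 in heterozygous and homozygous cells), and 1 was called, Cd68, which was lower at 24 h; this call was lost without the second array of either time. Their part in the lower chemokine and interferon-stimulated genes was not tested. Of the 10 fibroblast markers 3 were called. S100a4 was lower, from 13.22 and 13.19 to 11.71 and 11.94, while Col1a1 and Col3a1 were higher, the last only with all 4 arrays.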
